A study of Rattus norvegicus with 4 samples.

Results

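The genes described here are 10 imprinted genes, Igf2, Dlk1, Grb10, Plagl1, Peg3, Cdkn1c, Ndn, Snrpn, Asb4 and Mest, found by symbol among the 32883 genes of the deposited matrix. Each symbol matched 1 row. Single cells of the pituitary were read for them, from Sprague Dawley rats that were all female, 75 days old and at random stages of the estrous cycle. For the dissected preparation, 30 glands were separated into posterior and anterior lobes, and the pooled cells of each lobe filled 1 lane, so the posterior library and the anterior library come from the same glands. For the whole-gland preparation, 30 glands were pooled into 1 suspension that filled 2 lanes, and these lanes are technical repeats. All cells were dispersed with trypsin and EDTA and captured on a 10x Chromium controller with the v3 chemistry, which counts unique molecular identifiers (UMIs) at the end of each transcript. The animals carried no transgene or treatment that the labels name, and the series title asks about the astroglial and stem cell roles of folliculostellate cells, the non-hormonal network cells of the anterior lobe.

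An imprinted gene is transcribed mainly from the copy inherited from a single parent, under the control of DNA methylation set down in the germ line. Many such genes act on growth before and after birth, and several are strongly transcribed in endocrine cells and in the hypothalamus. In the mouse, Igf2, Dlk1, Plagl1, Peg3, Ndn, Snrpn and Mest are transcribed from the paternal copy, Cdkn1c and Asb4 from the maternal copy, and Grb10 from the maternal copy in most tissues and the paternal copy in neurons. The counts do not separate the 2 parental copies, so all values are levels of total RNA.

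The 300 bases around the RefSeq start site (250 before it and 50 after it, build GRCr8) were read for 9 of the 10 members, with 10 windows because Igf2 has 2, and 3 of them are shown for members whose levels set hormone classes apart. Capitals mark CG, the letter pair that carries DNA methylation.
Dlk1 (chr6:134192347-134192646, plus strand): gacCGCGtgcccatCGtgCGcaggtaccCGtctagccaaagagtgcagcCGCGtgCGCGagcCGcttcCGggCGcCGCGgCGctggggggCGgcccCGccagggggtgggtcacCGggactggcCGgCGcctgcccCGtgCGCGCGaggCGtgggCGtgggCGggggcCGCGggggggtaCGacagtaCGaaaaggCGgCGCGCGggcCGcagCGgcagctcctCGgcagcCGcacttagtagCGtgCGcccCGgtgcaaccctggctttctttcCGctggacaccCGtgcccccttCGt
Grb10 (chr14:90816338-90816637, minus strand): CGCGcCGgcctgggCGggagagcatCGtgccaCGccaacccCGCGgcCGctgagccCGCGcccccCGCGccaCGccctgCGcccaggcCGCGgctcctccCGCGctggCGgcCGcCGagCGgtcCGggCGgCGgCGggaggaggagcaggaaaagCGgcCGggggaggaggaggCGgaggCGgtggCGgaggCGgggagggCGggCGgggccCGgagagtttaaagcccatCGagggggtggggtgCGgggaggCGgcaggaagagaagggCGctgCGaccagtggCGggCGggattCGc
Asb4 (chr4:34473277-34473576, plus strand): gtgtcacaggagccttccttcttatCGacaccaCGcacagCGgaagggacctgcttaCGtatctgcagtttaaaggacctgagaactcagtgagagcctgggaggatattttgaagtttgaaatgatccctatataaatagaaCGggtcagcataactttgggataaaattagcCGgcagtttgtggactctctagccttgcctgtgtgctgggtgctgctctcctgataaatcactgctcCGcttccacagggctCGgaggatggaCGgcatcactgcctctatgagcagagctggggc
The Dlk1 window holds 45 CG pairs and the Grb10 window 44, more than 98.3% and 98.1% of the 33469 rat promoters of the same length. The Asb4 window holds 9, more than 55.7% of them, and the median over all promoters is 7. Over the 10 member windows the median is 17 CG pairs. The letters GGGCGG, on either strand, stand in the windows of 6 of the 9 members and in 33.1% of all promoters. TATAAA, on either strand, stands in the window of 1 member, Asb4, and in 14.2% of promoters, and CCAAT stands in those of 2 members, Peg3 and Snrpn, and in 37.5%. AAGATGGC was found for 0 of the 9 members and in 3.17% of promoters. These letters are descriptions of the windows, and GGGCGG contains a CG pair that is also counted above.

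After filtering, 19777 cells were kept, between 3832 in the posterior library and 5530 in whole-gland lane 1, with median depths between 9572.5 and 10604.5 UMIs per cell. The limit of 20% mitochondrial UMIs removed 45.4% of the posterior library's barcodes, against 27.2% to 27.9% in the other libraries. Between 3 and 10 barcodes were shared by any pair of libraries among kept cells. Cells were grouped into 24 clusters without using the 10 genes or other imprinted genes, and clusters were named from markers, so each name ends in "-like". Of these classes, 11 had at least 50 cells in both preparations and were tested, as 22 UMI sums of a class in a preparation. The fibroblast-like class also held mural markers: their summed level was 1170, 6857, 6075 and 4595 CPM (counts per 1e+06 UMIs) in the posterior, anterior, lane 1 and lane 2 libraries, and in the anterior library it exceeded that of the fibroblast markers, 4583 CPM. The posterior cells of this class were the ones with the most fibroblast marker RNA, 13536 CPM.

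The 10 genes covered a wide span of abundance. Kept cells held 168215 Dlk1 UMIs, 74841 of Peg3, 30531 of Mest, 12730 of Plagl1, 11828 of Ndn, 9441 of Cdkn1c, 7177 of Asb4 and 1867 of Grb10. Igf2 had 205 UMIs and Snrpn 81. Levels below are CPM of the class in 1 library, and are compared between classes and not between genes. All except Snrpn passed the low-count filter, which left 14599 genes to be tested.

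**Figure D1:**
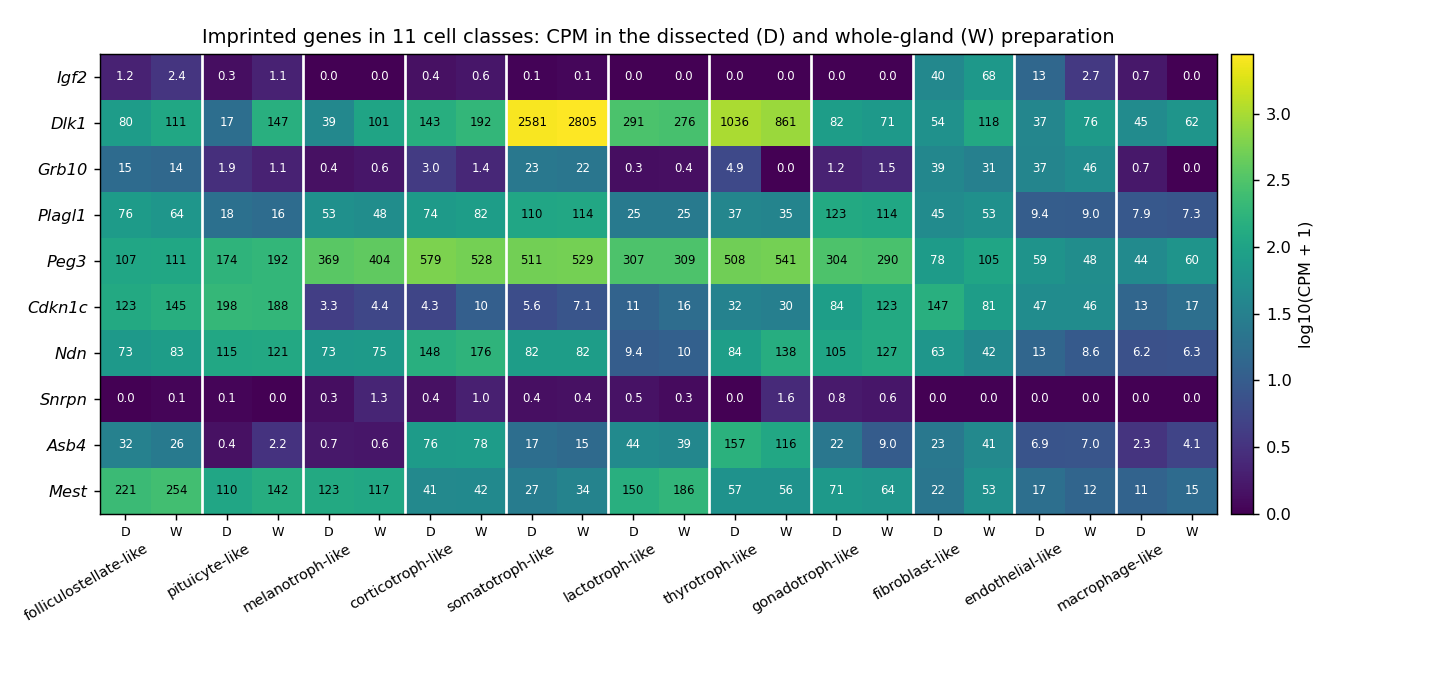
Level of each imprinted gene (rows) in each of the 11 cell classes (columns), in CPM, for the dissected (D) and the whole-gland (W) preparation. Cell colour is log10(CPM + 1) and the printed figure is the CPM. Dlk1 stands at 2581 and 2805 CPM in somatotroph-like cells, Igf2 reaches 39.8 and 68.1 CPM in fibroblast-like cells, and each gene has its own order of classes.

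Each class was set against the mean of the other 10 with edgeR's quasi-likelihood test, and a gene was called higher or lower where the log2 fold change was at least 1 in size and the p-value, adjusted over all genes by Benjamini and Hochberg's method, was under 0.05. Over the 9 tested members and 11 classes, 33 values were called higher and 30 lower. Of all genes in the same 11 comparisons, 14.8% were called higher and 9.22% lower. Every tested member was called higher in at least 2 classes. Peg3 and Asb4 were called higher in 5 classes each, and Plagl1 in 2, gonadotroph-like and somatotroph-like cells. Of the 33 higher calls, 3 were of Igf2, which passed the low-count filter through its fibroblast-like sums. Outside Igf2, 60 values were called, and all 60 had the same sign in both preparations. The calls came from a joint fit of these same preparations, so the shared sign is not separate support for them. Each class had 2 preparations, and the mean difference between preparations was fitted as a block. The p-values therefore measure how class differences varied between these preparations, pooled over the 11 classes, and not the spread between animals.

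The growth-related signals come first, with Igf2, an insulin-like growth factor that acts through the IGF1 receptor. Igf2 RNA was found in fibroblast-like cells, at 47.9 CPM in the posterior library (48 UMIs), 0 in the anterior library (35 cells), 51.7 CPM in lane 1 (13 UMIs) and 79.4 CPM in lane 2 (29 UMIs). The anterior library, with its few cells, allowed up to 14.8 CPM at 3 counts. Its fibroblast-like cells held more mural than fibroblast marker RNA, and the part of this in their Igf2 count was not tested. Mural markers were also present in fibroblast-like cells of the lanes, where Igf2 was found. In hormone classes the gene was at or near 0. Melanotroph-like, gonadotroph-like and thyrotroph-like cells held 0 Igf2 UMIs in all libraries, lactotroph-like cells 2 in the posterior library, somatotroph-like cells 6 and corticotroph-like cells 4 over all libraries.

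Igf2 in fibroblast-like cells of the dissected preparation was 1067 times the pooled level of the 5 hormone classes (95% exact counting interval 280 to 9058, from 48 against 2 UMIs). In the whole-gland preparation it was 925 times that level (412 to 2441, from 42 against 7 UMIs). The dissected ratio crosses libraries: its 48 fibroblast UMIs all came from the posterior library, and its hormone classes from the anterior library, where fibroblast-like cells held 0. Fibroblast-like against endothelial-like cells differed by a log2 fold change of 2.75 ± 0.49 (SE, adjusted p = 0.00024). Igf2 passed the low-count filter through its fibroblast-like sums, at 39.8 and 68.1 CPM, so its calls are not independent of that choice. Over the other classes its highest sum was 13.4 CPM, in endothelial-like cells of the dissected preparation. Endothelial-like cells held 19.5 CPM in the posterior library (36 UMIs), 1.09 CPM in the anterior library (1 UMI), 3.77 CPM in lane 1 and 1.04 CPM in lane 2. The posterior library was the high one. Its endothelial-like cells also held the most fibroblast marker RNA, with 5 of 6 markers detected and a sum of 1200 CPM, against 424 CPM in the anterior library and 459 and 374 CPM in the lanes, and Col1a2 was at 0 in all 4. Mural markers, 6 of 6 detected, summed to 2363 CPM in the posterior endothelial-like cells, against 520 CPM in the anterior library and 1240 and 1246 CPM in the lanes. The part of either in endothelial Igf2 was not tested.

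Dlk1 encodes a membrane protein with EGF-like repeats that is related to Notch ligands and is known from growth hormone cells and fat cell precursors. It was the member with the highest UMI count, and somatotroph-like cells, the growth hormone cells, held 129173 of the 168215 UMIs. Their level was 2841 CPM in the posterior library, 2581 CPM in the anterior library, 2813 CPM in lane 1 and 2797 CPM in lane 2. The 4 libraries differed little and lay above every other class, whose 20 sums had a lowest level of 16.9, a median of 91.2 and a highest of 1036 CPM. The log2 fold change against the other classes was 4.83 ± 0.20 (SE, adjusted p = 4.5e-15). A somatotroph-like cell held a median of 23 Dlk1 UMIs, with 8 at the tenth percentile, 49 at the ninetieth and 288 at most.

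The order of classes for Dlk1 continued with thyrotroph-like cells, at 623 CPM in the posterior library (23 cells), 1036 CPM in the anterior library, 1227 CPM in lane 1 and 572 CPM in lane 2. Lane 1 was the highest of these and lane 2 the lowest. Lactotroph-like cells followed with 273, 291, 266 and 287 CPM in the same order of libraries, and corticotroph-like cells with 178, 143, 219 and 163 CPM. Somatotroph-like cells differed from thyrotroph-like cells (log2 fold change 1.89 ± 0.40 SE, adjusted p = 0.0014), and lactotroph-like from corticotroph-like cells (1.79 ± 0.40 SE, adjusted p = 0.00076). These folds are on the scale of edgeR's TMM library sizes, on which lactotroph-like cells held 483 and 487 CPM in the dissected and whole-gland sums, against 120 and 169 CPM in corticotroph-like cells, while their plain CPM were 291 and 276, against 143 and 192. Thyrotroph-like and lactotroph-like cells did not overlap in plain CPM, but on the TMM scale, at 876 and 762 against 483 and 487 CPM, their difference did not pass the test (0.76 ± 0.39 SE, adjusted p = 0.17), nor did that of neighbours from corticotroph-like cells downward. Among neighbouring classes in the order of each tested member, 16 of 90 pairs differed, and of all genes in the same pairs 29% differed. The pairs were picked as neighbours by the member's own level in these sums, which favours small differences for the member alone. The 2 shares therefore cannot be compared. Dlk1 was called lower in gonadotroph-like, melanotroph-like, fibroblast-like, pituicyte-like, macrophage-like and endothelial-like cells against the other classes. Without the posterior library the log2 fold change was -0.68 in melanotroph-like, -0.66 in pituicyte-like and -0.97 in macrophage-like cells, and without the anterior library it was -0.65 in melanotroph-like and -0.83 in fibroblast-like cells, and none of these values passed both limits. With doublets kept, the value in gonadotroph-like cells was 0.36, of the opposite sign to the -1.18 with doublets left out. Within lactotroph-like cells the cluster led by Cartpt held 89.0 CPM of Dlk1, against 308, 322 and 365 CPM in the other 3 clusters.

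After each cell was thinned to 2000 UMIs, 98.2% of somatotroph-like cells held a Dlk1 UMI (95% exact binomial interval 97.8 to 98.6, 99.5% before thinning). The share was 50.3% in thyrotroph-like cells (42.7 to 57.8, 65.3% before), 31.7% in lactotroph-like cells (30.5 to 32.9, 67.7% before) and 16.1% in corticotroph-like cells (13.9 to 18.5, 30.6% before). In macrophage-like cells, which are not known to make Dlk1, it was 3.45% (2.30 to 4.95, 8.19% before, median depth 5334 UMIs against 9366.5 in somatotroph-like cells). It was 5.34% in folliculostellate-like cells (4.52 to 6.26) and 3.34% in pituicyte-like cells, which are glia of the neural lobe (2.28 to 4.70). Both intervals overlap that of macrophage-like cells, but they cover counting error only, and the differences between these shares were not tested.

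Droplets also hold free RNA, and Dlk1 in non-hormonal classes was read beside Gh1, the growth hormone gene, from the same libraries. Somatotroph-like cells held 8.77, 8.0, 8.40 and 8.41 Dlk1 UMIs per 1000 Gh1 UMIs in the posterior, anterior, lane 1 and lane 2 libraries. The Dlk1 level of macrophage-like cells was 0.905, 0.998, 1.16 and 1.68 times what this ratio gives from their Gh1, and that of pituicyte-like cells 1.07, 1.04 and 1.15 times in the posterior library and the lanes. In folliculostellate-like cells it was 1.73, 1.51, 1.40 and 1.19 times. Lactotroph-like cells held 37.7, 15.2, 7.53 and 10.5 times that level. Thyrotroph-like cells, with Gh1 at 1779, 16934, 37270 and 1965 CPM, held 39.9, 7.65, 3.92 and 34.6 times it. Both their Dlk1 and their Gh1 were highest in lane 1, and the part of somatotroph RNA in this was not tested. Over 45 pairs of a class and a library outside somatotroph-like cells, Dlk1 was at or under the Gh1-based level in 8 and at or under the level set by the lowest of the hormone genes in 3. Folliculostellate-like cells held 15.7, 80.0, 116 and 105 CPM of Dlk1 in the 4 libraries. With the 2, 55, 49 and 42 cells rich in hormone RNA left out, this became 16.0, 36.8, 53.7 and 44.7 CPM.

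**Figure D2:**
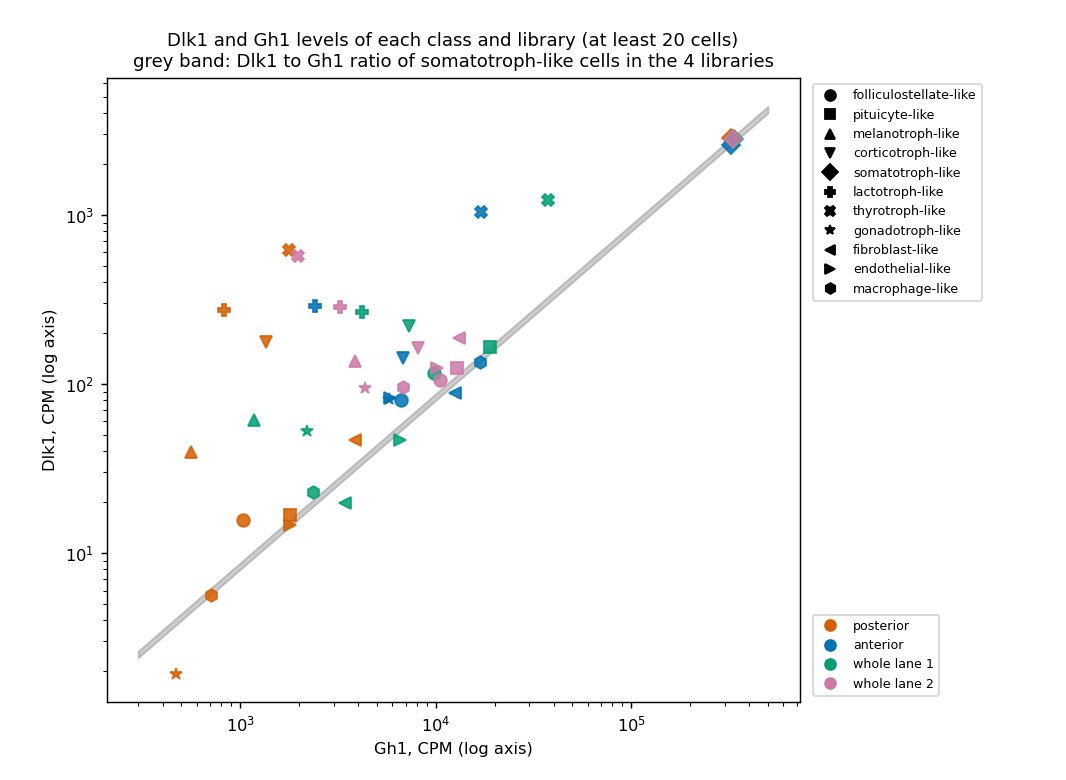
Dlk1 level (vertical axis, CPM) against Gh1 level (horizontal axis, CPM), both on log axes, for each class (marker shape) and library (colour) with at least 20 cells. The grey band is the ratio in somatotroph-like cells, 8.0 to 8.77 Dlk1 UMIs per 1000 Gh1 UMIs. Pituicyte-like points lie at 1.04 to 1.15 times the ratio of their library, and lactotroph-like points at 7.53 to 37.7 times.

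Grb10 encodes an adaptor that binds the insulin and IGF1 receptors and dampens their signal. Its level was 35.2, 39.2, 45.3 and 47.7 CPM in endothelial-like cells of the posterior, anterior, lane 1 and lane 2 libraries, and 23.6, 22.7, 21.8 and 21.3 CPM in somatotroph-like cells. Folliculostellate-like cells held 20.1, 15.1, 12.8 and 14.9 CPM. Lactotroph-like cells held 0.169, 0.349, 0.265 and 0.477 CPM, so the libraries of these 4 classes do not overlap. Against the other classes, Grb10 was higher in endothelial-like cells (log2 fold change 3.80 ± 0.20 SE, adjusted p = 4.7e-14), fibroblast-like cells (3.70 ± 0.31 SE), somatotroph-like cells (3.30 ± 0.15 SE) and folliculostellate-like cells (2.22 ± 0.18 SE). It was lower in lactotroph-like cells (-2.54 ± 0.39 SE, adjusted p = 7.0e-06), and this call and those in macrophage-like, melanotroph-like, gonadotroph-like and pituicyte-like cells were lost without the anterior library. Over all libraries, 6209 lactotroph-like cells held 35 Grb10 UMIs and 4848 somatotroph-like cells 1043.

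**Figure D3:**
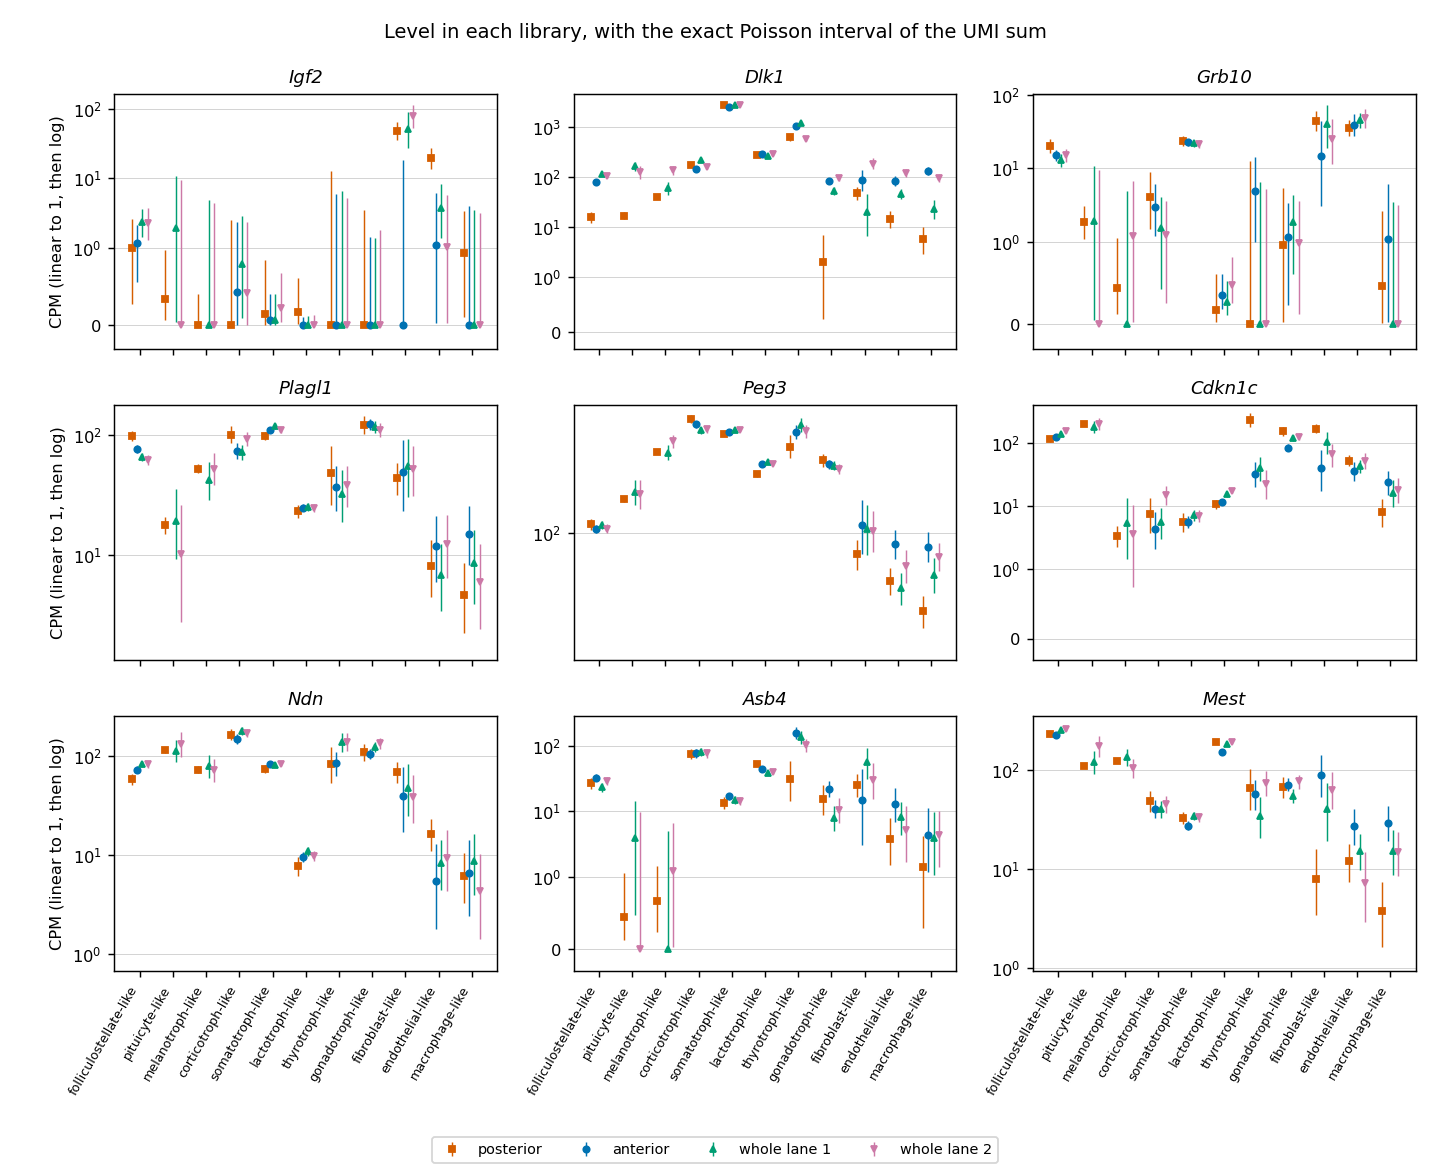
Level in each library, in CPM, for 9 members in each class with at least 20 cells, with the 95% exact Poisson interval of the UMI sum. The vertical axes are linear up to 1 CPM and logarithmic above, and each panel has its own range. Posterior values of Dlk1 lie below the others in gonadotroph-like, folliculostellate-like, endothelial-like and macrophage-like cells, and Asb4 is near 0 in pituicyte-like and melanotroph-like cells.

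Among regulators in the nucleus, Plagl1 is a zinc-finger transcription factor that slows growth in cultured cells. Gonadotroph-like cells held 122, 123, 117 and 110 CPM in the posterior, anterior, lane 1 and lane 2 libraries, and somatotroph-like cells 99.3, 110, 119 and 109 CPM. The ranges of the 2 classes overlap, and these classes were the 2 called higher for Plagl1 (log2 fold changes 1.68 ± 0.09 and 1.94 ± 0.07 SE, adjusted p = 4.7e-13 and 7.2e-16). Pituicyte-like cells, at 17.8, 19.4 and 10.3 CPM in the posterior library and the lanes, were lower (-1.46 ± 0.14 SE, adjusted p = 4.0e-09). Folliculostellate-like clusters differed among themselves, at 122 CPM in 1 cluster and 37.5 and 46.5 CPM in the other 2.

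Peg3, a large zinc-finger protein, was the most widely detected member, with UMIs in 74.6% of kept cells. Its level was 625, 579, 525 and 532 CPM in corticotroph-like cells, 497, 511, 527 and 530 CPM in somatotroph-like cells and 258, 307, 313 and 305 CPM in lactotroph-like cells of the posterior, anterior, lane 1 and lane 2 libraries. Folliculostellate-like cells held 115, 107, 113 and 107 CPM, under all hormone classes in every library. On the TMM scale lactotroph-like cells held 509 and 546 CPM of Peg3 in the dissected and whole-gland sums. Corticotroph-like cells held 487 and 466 CPM there, and the 2 classes did not differ (0.15 ± 0.15 SE, adjusted p = 0.46). Peg3 was called higher in corticotroph-like, somatotroph-like, lactotroph-like, thyrotroph-like and melanotroph-like cells and lower in endothelial-like, macrophage-like, fibroblast-like and folliculostellate-like cells, the last of which was lost with doublets kept, at -0.95. The levels fell in small steps from class to class, and 0 of its 10 neighbouring pairs differed by the size rule.

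Cdkn1c encodes p57, an inhibitor of cyclin-dependent kinases that holds cells out of division. Pituicyte-like cells held 198, 179 and 201 CPM in the posterior library and lanes 1 and 2. Folliculostellate-like cells held 113, 123, 137 and 155 CPM and gonadotroph-like cells 153, 84.5, 121 and 126 CPM in the posterior, anterior, lane 1 and lane 2 libraries. Somatotroph-like cells held 5.49, 5.57, 7.14 and 7.01 CPM, below every library of those 3 classes. Cdkn1c was higher in pituicyte-like (log2 fold change 2.73 ± 0.14 SE, adjusted p = 6.8e-14), folliculostellate-like (2.17 ± 0.12 SE), fibroblast-like (2.07 ± 0.22 SE) and gonadotroph-like cells (1.83 ± 0.15 SE), and lower in melanotroph-like, corticotroph-like and somatotroph-like cells. Gonadotroph-like cells were the only hormone class called higher for it. Thyrotroph-like cells held 32.4 and 30.0 CPM in the tested sums, which leave out their 23 posterior cells. With those cells added, the dissected level of thyrotroph-like cells was 95.8 CPM. Thinned to 2000 UMIs, 30.6% of pituicyte-like cells (27.6 to 33.6) and 19.9% of folliculostellate-like cells (18.4 to 21.4) held a Cdkn1c UMI, against 1.30% of somatotroph-like cells (0.994 to 1.66).

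Ndn encodes necdin, a protein of the MAGE family made in neurons and other cells that have stopped dividing. Corticotroph-like cells held 164, 148, 180 and 171 CPM in the posterior, anterior, lane 1 and lane 2 libraries. Lactotroph-like cells held 7.63, 9.43, 10.8 and 9.73 CPM, far below and without overlap. Ndn was higher in corticotroph-like cells (log2 fold change 1.63 ± 0.10 SE, adjusted p = 1.6e-11), gonadotroph-like, pituicyte-like and thyrotroph-like cells, and lower in lactotroph-like (-1.73 ± 0.12 SE, adjusted p = 2.4e-11), endothelial-like and macrophage-like cells.

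Snrpn encodes SmN, a core protein of the spliceosome, and shares its transcript with Snurf in rodents, so the 2 counts cannot be told apart by this assay with certainty. The files list 81 Snrpn UMIs and 102 Snurf UMIs in kept cells. Of the Snrpn UMIs, 37 fell in lactotroph-like, 21 in somatotroph-like, 6 in corticotroph-like, 6 in gonadotroph-like and 5 in melanotroph-like cells. Fibroblast-like, endothelial-like and macrophage-like cells held 0, and no class passed 1.58 CPM in a preparation. Snrpn did not pass the low-count filter, so differences between classes were not tested.

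Asb4 encodes a substrate receptor of a cullin ubiquitin ligase and is known from hypothalamic neurons. Corticotroph-like cells held 74.8, 76.0, 80.4 and 76.3 CPM in the posterior, anterior, lane 1 and lane 2 libraries, and lactotroph-like cells 53.0, 44.3, 38.6 and 39.2 CPM. Thyrotroph-like cells held 31.0 CPM (9 UMIs in 23 cells), 157 CPM, 134 CPM and 102 CPM. Pituicyte-like cells held 0.447, 3.89 and 0 CPM in the posterior library and the lanes, and the posterior value is at or under the level expected from free RNA. The first 3 classes lie above pituicyte-like cells in every library. On the TMM scale lactotroph-like cells held 73.6 and 68.6 CPM of Asb4 in the dissected and whole-gland sums. Corticotroph-like cells held 64.0 and 69.2 CPM there, and the 2 classes did not differ (0.07 ± 0.15 SE, adjusted p = 0.75). Asb4 was higher in thyrotroph-like (log2 fold change 3.59 ± 0.20 SE, adjusted p = 5.9e-12), lactotroph-like (2.82 ± 0.12 SE), corticotroph-like (2.75 ± 0.15 SE), fibroblast-like (1.24 ± 0.32 SE) and folliculostellate-like cells (1.20 ± 0.16 SE). The last call was lost without the posterior library, at 0.90. It was lower in pituicyte-like (-4.96 ± 0.46 SE, adjusted p = 2.8e-09), melanotroph-like (-4.27 ± 0.46 SE), macrophage-like and endothelial-like cells. The macrophage call was lost with doublets kept, at -0.61, and the endothelial call at Leiden resolution 0.5, at -0.80.

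Mest encodes an enzyme of the alpha/beta hydrolase family that marks growing fat and embryonic mesoderm. Folliculostellate-like cells held 230, 221, 253 and 256 CPM in the posterior, anterior, lane 1 and lane 2 libraries, and lactotroph-like cells 188, 150, 182 and 190 CPM. Corticotroph-like cells held 47.9, 40.6, 40.2 and 44.6 CPM. Mest was called higher in lactotroph-like (log2 fold change 2.57 ± 0.11 SE, adjusted p = 7.8e-15), folliculostellate-like (2.10 ± 0.12 SE) and melanotroph-like cells (1.54 ± 0.14 SE). By plain CPM folliculostellate-like cells came first, and in the edgeR fit lactotroph-like cells did (-0.43 ± 0.18 SE for folliculostellate-like over lactotroph-like cells), a pair that did not differ by the size rule. Hormone RNA filled 48.1% and 50.6% of lactotroph-like UMIs and 4.75% and 4.46% of folliculostellate-like UMIs, and edgeR's TMM scaling leaves such extreme genes out when it sets library sizes.

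**Figure D4:**
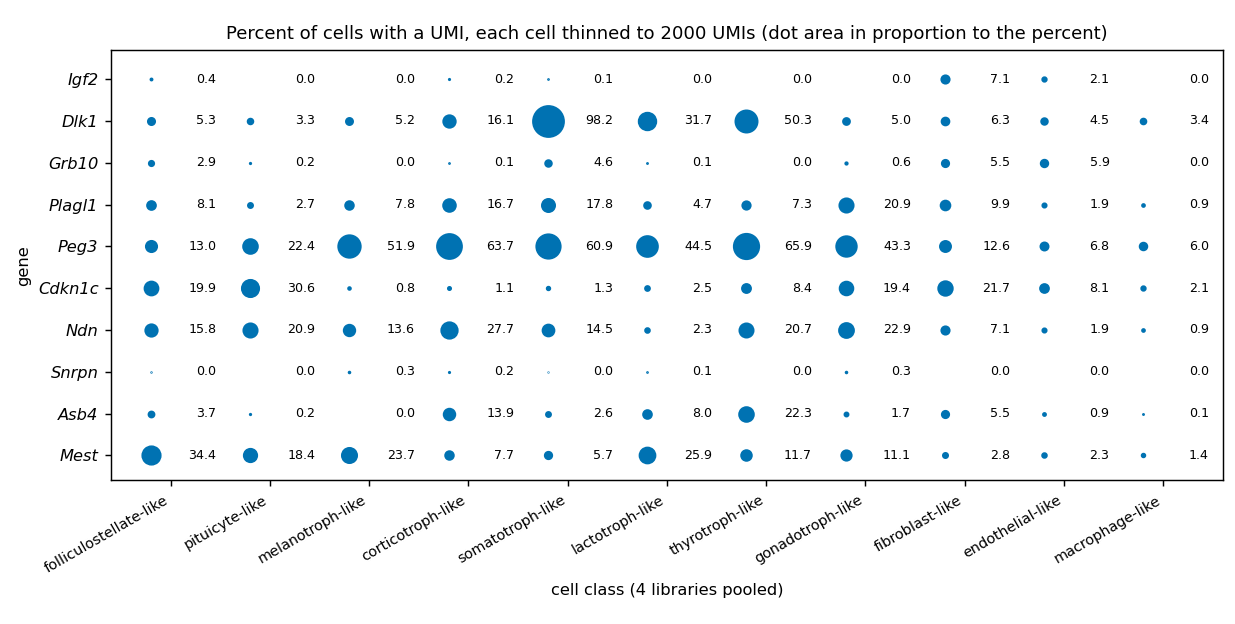
Percent of cells with at least 1 UMI of each imprinted gene (rows) in each class (columns), over the 4 libraries, after each cell was thinned to 2000 UMIs, with dot area in proportion to the percent printed beside it. Dlk1 reaches 98.2% in somatotroph-like cells, Peg3 is at 43.3% to 65.9% in hormone classes, and Mest is at 34.4% in folliculostellate-like cells.

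In macrophage-like cells 0 of 9 members were called higher and 7 lower, where 20% of all genes were higher and 17% lower in that class. Endothelial-like cells had 6 members lower, where 13.6% of all genes were lower, and 2 higher, Grb10 and Igf2, where 24.7% were. Folliculostellate-like cells had 5 members higher and 1 lower, Peg3, beside 19.1% and 5.47% of all genes. The call of Mest in macrophage-like cells was lost with doublets kept, at -0.99. Thyrotroph-like cells had 4 higher and 0 lower, beside 7.43% and 5.14%. Somatotroph-like cells had 4 higher and 1 lower (11.7% and 9.47% of all genes), lactotroph-like cells 4 and 2 (12.2% and 8.43%), corticotroph-like cells 3 and 1 (9.94% and 9.51%) and gonadotroph-like cells 3 and 2 (11.1% and 8.73%). Melanotroph-like cells had 2 higher and 4 lower (11.6% and 7.55%), pituicyte-like cells 2 and 4 (17.7% and 10.7%) and fibroblast-like cells 4 and 2 (17.2% and 5.85%). The 4 higher calls in fibroblast-like cells include Igf2, which passed the low-count filter through its sums in that class. The median log2 fold change of the 9 members was -2.00 in macrophage-like, -1.88 in endothelial-like and 1.20 in folliculostellate-like cells, against -0.07, 0.09 and 0.08 over all genes.

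Folliculostellate-like cells were next set against the mean of the 5 hormone classes of the anterior lobe. Of 9 members, 4 were higher (Cdkn1c, Grb10, Mest and Igf2) and 2 lower (Dlk1 and Peg3), where 23.2% of all genes were higher and 11.3% lower. Cdkn1c was at 123 and 145 CPM in the dissected and whole-gland sums of folliculostellate-like cells, and the 10 hormone sums had a lowest level of 4.27, a median of 13.8 and a highest of 123 CPM. The high hormone sums for Cdkn1c were those of gonadotroph-like cells. The log2 fold change was 2.60 ± 0.14 (SE, adjusted p = 7.7e-14).

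Grb10 was at 15.1 and 13.7 CPM in folliculostellate-like cells, and at a lowest of 0, a median of 1.46 and a highest of 22.7 CPM in hormone sums, the highest being somatotroph-like (log2 fold change 2.55 ± 0.20 SE, adjusted p = 1.2e-10). Mest was at 221 and 254 CPM, against hormone sums of 27.2, 56.3 and 186 CPM (lowest, median and highest; 1.74 ± 0.13 SE, adjusted p = 5.8e-11). In plain CPM its folliculostellate-like sums lay above all hormone sums, while on the TMM scale they held 199 and 227 CPM, under the 249 and 328 CPM of lactotroph-like cells. Igf2 was at 1.17 CPM (10 UMIs) and 2.36 CPM (36 UMIs), which was 31.2 times (6.66 to 293) and 32.0 times (14.1 to 85.3) the pooled hormone level. Both Igf2 values rest on few UMIs.

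Peg3 was at 107 and 111 CPM in folliculostellate-like cells, under all 10 hormone sums, which lay between 290 and 579 CPM (-2.21 ± 0.13 SE, adjusted p = 9.6e-13). Dlk1 was at 80.0 and 111 CPM, and the hormone sums had a lowest level of 70.9, a median of 283 and a highest of 2805 CPM (-2.31 ± 0.36 SE, adjusted p = 5.0e-06). Asb4 had a log2 fold change of -0.71 ± 0.13 (SE, adjusted p = 5.1e-05), below the size rule, with 32.2 and 25.6 CPM in folliculostellate-like cells. Ndn and Plagl1 had values of -0.12 ± 0.10 and -0.08 ± 0.09 (SE, adjusted p = 0.34 and 0.44). Their hormone classes stand on either side of the folliculostellate-like level, with Ndn at 9.43 to 176 CPM and Plagl1 at 24.9 to 123 CPM.

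Against pituicyte-like cells, folliculostellate-like cells had 4 members higher (Asb4, Grb10, Plagl1 and Mest) and 0 lower, where 17.4% of all genes were higher and 12.3% lower. Peg3, Ndn and Cdkn1c had negative values, of -0.64, -0.54 and -0.50 (adjusted p = 0.0012, 0.0026 and 0.018). They passed the limit on the adjusted p and missed only the size rule. DESeq2 also called 0 lower. Asb4 was at 32.2 and 25.6 CPM in folliculostellate-like cells, against 0.447 CPM (4 UMIs) and 2.22 CPM (2 UMIs) in pituicyte-like cells. The 2 classes do not overlap (log2 fold change 5.61 ± 0.42 SE, adjusted p = 1.2e-10).

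Plagl1 was at 76.4 and 64.5 CPM in folliculostellate-like cells, against 17.8 and 15.5 CPM in pituicyte-like cells (2.06 ± 0.15 SE, adjusted p = 5.8e-11). Grb10 was at 15.1 and 13.7 CPM, against 1.90 and 1.11 CPM (3.01 ± 0.32 SE, adjusted p = 4.3e-08). Mest was at 221 and 254 CPM, against 110 and 142 CPM (1.04 ± 0.19 SE, adjusted p = 9.2e-05), just past the size rule. It was 0.90 without the posterior library, 0.97 without whole-gland lane 1, 0.96 with doublets kept and 0.97 without the shallow pituicyte-like cluster, and its call was lost in all 4. For Dlk1 the value was 0.87 ± 0.45 (SE, adjusted p = 0.11), from 80.0 and 111 CPM in folliculostellate-like cells, against 16.9 and 147 CPM in pituicyte-like cells. Igf2, at 10 and 36 UMIs in folliculostellate-like cells against 3 and 1 UMIs in pituicyte-like cells, did not pass (adjusted p = 0.080), and Snrpn was not tested. The 2 preparations of pituicyte-like cells stood far apart for Dlk1, and so did their Gh1 levels, at 1797 CPM in the posterior library, against 18862 and 12784 CPM in the lanes.

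**Figure D5:**
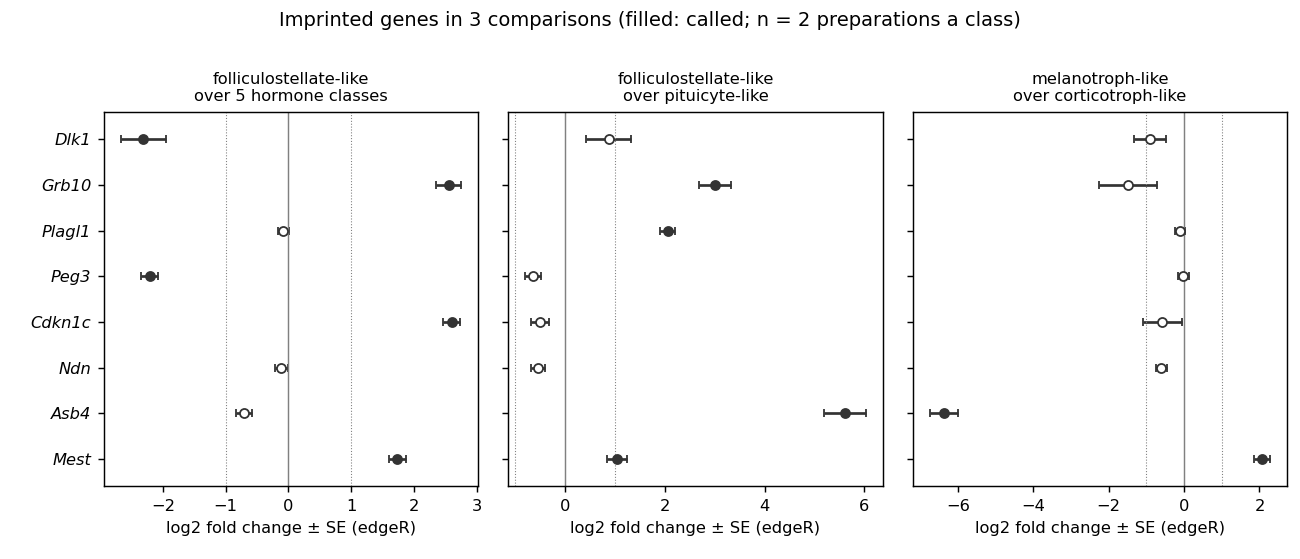
Log2 fold change (edgeR, horizontal axis) with its standard error for 8 members in folliculostellate-like cells over 5 hormone classes, in folliculostellate-like over pituicyte-like cells and in melanotroph-like over corticotroph-like cells, with 2 preparations a class. Filled points passed the adjusted p and the size rule, whose limits are the dotted lines. Cdkn1c is at 2.60 in the panel for hormone classes, and Asb4 at 5.61 and -6.37 in the other 2.

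Melanotroph-like cells of the intermediate lobe and corticotroph-like cells of the anterior lobe both make Pomc, the precursor of melanotropin and corticotropin, and were compared as a pair. Of 9 members, 1 was higher (Mest) and 1 lower (Asb4) in melanotroph-like cells, where 8.77% of all genes were higher and 5.89% lower. Mest was at 123 and 117 CPM in melanotroph-like cells, against 40.6 and 42.3 CPM in corticotroph-like cells (2.07 ± 0.21 SE, adjusted p = 9.3e-08). Asb4 was at 0.666 CPM (6 UMIs) and 0.629 CPM (1 UMI), against 76.0 CPM (178 UMIs) and 78.4 CPM (387 UMIs). That is 0.00876 times (0.00317 to 0.0194) and 0.00802 times (0.000203 to 0.0450) the corticotroph level (log2 fold change -6.37 ± 0.38 SE, adjusted p = 1.7e-11). Thinned to 2000 UMIs, 0 of 632 melanotroph-like cells held an Asb4 UMI, which allows a share of up to 0.475%, against 13.9% of corticotroph-like cells (11.8 to 16.1).

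Peg3 was at 369 and 404 CPM in melanotroph-like cells, against 579 and 528 CPM in corticotroph-like cells, with a log2 fold change of -0.02 ± 0.15 (SE, adjusted p = 0.96) after TMM scaling. Ndn had -0.60 ± 0.15 (SE, adjusted p = 0.0034), from 72.6 and 74.8 CPM, against 148 and 176 CPM, below the size rule. Dlk1 had -0.91 ± 0.42 (SE, adjusted p = 0.13), from 39.5 and 101 CPM, against 143 and 192 CPM. Cdkn1c had -0.57 ± 0.51, Plagl1 -0.10 ± 0.13 and Grb10 -1.49 ± 0.78 (SE, adjusted p = 0.47, 0.64 and 0.18). Igf2 was at 0 UMIs in melanotroph-like cells, against 1 and 3 UMIs in corticotroph-like cells, and did not pass, and Snrpn was not tested. Hormone RNA filled 44.4% and 45.5% of melanotroph-like UMIs, against 22.2% and 21.3% of corticotroph-like UMIs.

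The lobes have 1 library each, so the posterior and anterior values carry no test. Over 7 classes with at least 50 cells in both libraries, 47 pairs of a member and a class had at least 20 UMIs in 1 of the libraries. Of these, 2 were at least 2-fold higher in the posterior library and 8 at least 2-fold lower. Over all genes and the same classes, 3.52% were higher and 2.51% lower by that rule. Class by class, 10.1% and 3.64% of genes were higher and lower in endothelial-like, 9.91% and 2.93% in macrophage-like, 3.73% and 3.08% in folliculostellate-like and 1.07% and 3.08% in gonadotroph-like cells. In somatotroph-like, lactotroph-like and corticotroph-like cells, where 0 members passed, these shares were 0.679% and 1.35%, 1.22% and 2.45%, and 0.817% and 1.29%. Dlk1 gave 4 of the 8 lower pairs. In gonadotroph-like cells it was at 1.93 CPM (2 UMIs) in the posterior library, against 81.8 CPM (212 UMIs) in the anterior library, a ratio of 0.0237 (0.00285 to 0.0865, exact counting interval). In folliculostellate-like cells it was at 15.7 against 80.0 CPM (0.197, 0.149 to 0.255), in endothelial-like cells at 14.6 against 82.7 CPM (0.177, 0.110 to 0.278) and in macrophage-like cells at 5.64 against 135 CPM (0.0419, 0.0211 to 0.0758).

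With doublets kept, 7 of these 10 pairs still passed in the same direction. The gonadotroph-like Dlk1 level was then 136.9 against 250.7 CPM (ratio 0.546), the endothelial-like level 40.9 against 78.0 CPM (0.525), and Ndn in endothelial-like cells 17.1 against 13.2 CPM (1.30), and none of the 3 passed. In that setting Cdkn1c in gonadotroph-like cells was a higher pair (2.35), and Asb4 in gonadotroph-like (0.461) and Plagl1 in macrophage-like cells (0.168) were lower pairs.

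Gh1 moved the same way in these 4 classes, with doublets left out, at 470, 1036, 1792 and 711 CPM in the posterior library, against 5753, 6641, 5816 and 16876 CPM in the anterior library. Somatotroph-like cells themselves held 2841 CPM of Dlk1 in the posterior library, against 2581 CPM in the anterior library (1.10, 1.08 to 1.12). Mest, Peg3 and Cdkn1c were lower in posterior macrophage-like cells and Mest in posterior endothelial-like cells. Ndn and Igf2 were the 2 higher pairs, both in endothelial-like cells, at 16.2 against 5.44 CPM (30 and 5 UMIs) and 19.5 against 1.09 CPM (36 and 1 UMIs). Most anterior and posterior endothelial-like cells belonged to different clusters, and so did most macrophage-like cells. The part of that and of free RNA in these ratios was not tested.

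Among 70 other imprinted genes listed from mouse and rat, 56 symbols were found and 43 genes were tested. Whether the listed genes are imprinted in the rat pituitary was not tested. In folliculostellate-like cells against hormone classes 16 of the 43 were higher and 10 lower, against pituicyte-like cells 11 and 6, and in melanotroph-like against corticotroph-like cells 8 and 6. Of all genes in these comparisons, 23.2% were higher and 11.3% lower, 17.4% and 12.3%, and 8.77% and 5.89%. Their median log2 fold changes were 0.17, 0.16 and 0.11, against 0.10, 0.04 and 0.01 over all genes. Nnat, a small membrane protein of endoplasmic reticulum, was at 417 and 394 CPM in folliculostellate-like cells. This was called higher than the mean of the hormone classes (1.39 ± 0.21 SE, adjusted p = 3.0e-06). Corticotroph-like cells (901 and 897 CPM) and thyrotroph-like cells (790 and 924 CPM) lay above folliculostellate-like cells. Lactotroph-like (5.42 and 12.8 CPM) and somatotroph-like cells (18.1 and 20.9 CPM) lay below, and gonadotroph-like cells held 233 and 424 CPM. In melanotroph-like cells Nnat was lower, at 16.4 and 33.3 CPM, against 901 and 897 CPM in corticotroph-like cells (-4.82 ± 0.37 SE, adjusted p = 9.5e-10). Cd81, a tetraspanin encoded near Cdkn1c, was at 1486 and 1518 CPM in folliculostellate-like cells, higher than in hormone classes (2.09 ± 0.10 SE) and lower than in pituicyte-like cells, which held 3760 and 3666 CPM (-1.20 ± 0.14 SE, adjusted p = 2.3e-07). One of 2 rows named Gnas, the row with the fewer counts, was at 1265 and 1082 CPM in melanotroph-like cells, against 153 and 167 CPM in corticotroph-like cells (3.38 ± 0.20 SE, adjusted p = 1.7e-11). Dcn, at 6.77 and 7.20 CPM in folliculostellate-like cells, was lower than the mean of the hormone classes (-1.32). Corticotroph-like cells (2.14 and 1.82 CPM) and gonadotroph-like cells (3.47 and 4.28 CPM) held less than folliculostellate-like cells. Lactotroph-like (52.4 and 38.6 CPM), somatotroph-like (35.4 and 41.9 CPM) and thyrotroph-like cells (53.4 and 51.3 CPM) held more. In folliculostellate-like cells Nnat and the larger Gnas row were higher than in pituicyte-like cells (1.53 and 1.79). Pon2 was lower in melanotroph-like than in corticotroph-like cells (-2.23). Reads of the 2 Gnas rows could be split by the authors' counting, so the Gnas values are uncertain.

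Across the 22 sums, the Pearson correlation of log2(CPM + 1) describes which genes ran alike, among 8387 genes with a mean of at least 10 CPM. These sums share libraries and classes, so no p is given. Dlk1 ran most closely with Arhgap36 (0.93), Ctxn3 (0.91) and Abcc8, a subunit of a potassium channel (0.89). Igf2 ran with Lamc3, a laminin chain (0.97), Dkk2 (0.96) and Matn2 (0.96), and Grb10 with Mirlet7d (0.89), Rab2b (0.88) and Cavin3 (0.86). Plagl1 ran with Zc3h6 (0.92), Sobp (0.90) and Magi2 (0.89), and Peg3 with Pnma8b (0.97), Unc80 (0.96) and Slc6a17 (0.96). For Cdkn1c the closest were Vegfa, a vascular growth factor (0.90), Csrp2 (0.90) and Oat (0.89), and for Ndn they were Psmg1 (0.96), LOC100174910 (0.96) and Med31 (0.94). Asb4 ran with Ccdc28a (0.83), Rcan2 (0.81) and Nexmif (0.79), Mest with Ddr1, a collagen receptor (0.87), Rtn1 (0.86) and Tmsb15b2 (0.86), and Snrpn with Auh, AABR07039336.2 and Gng3 (0.79, 0.79 and 0.78). Among the members themselves the closest pairs were Ndn with Plagl1 (0.74), Peg3 with Snrpn (0.71) and Igf2 with Grb10 (0.69). Igf2 and Snrpn, with 205 and 81 UMIs in kept cells, stood at 0 in several sums, so their correlations rest on few counts. Of imprinted genes near a member in rodent genomes, Usp29 ran with Peg3 (0.84), Slc22a18 with Igf2 (0.83), Cd81 with Cdkn1c (0.78) and Pon3 with Asb4 (0.60), and Begain ran against Dlk1 (-0.50). Igf2 and Cdkn1c, which lie in the same imprinted cluster, had 0.43.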

How the data were processed

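The deposited raw UMI counts per gene and barcode were made by the authors with Cell Ranger 3.1, per the submitters' processing notes; the genome build is not given in the sources used here. The barcode list deposited with the counts (other) names the library of each cell. Of 32455 barcodes, 20381 passed limits of 1000 UMIs and 500 genes from below and of 20% mitochondrial UMIs from above. Of these, 604 were left out as doublets by Scrublet (expected rate 0.06, common threshold 0.25, taken over from earlier work on these data). The 19777 cells left were clustered with scanpy 1.11.5 (2000 variable genes, 30 components, 15 neighbours, Leiden resolution 1) without imprinted genes, and clusters were named from marker lists.

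UMIs were summed per class and preparation. The dissected sum was the anterior library for folliculostellate-like and hormone classes, the posterior library for melanotroph-like and pituicyte-like cells, and both libraries otherwise; the whole-gland sum joined both lanes. Each sum needed at least 50 cells. The 22 sums were fitted with edgeR 4.0.16 (R 4.3.3; TMM, filter on low counts, quasi-likelihood test) with preparation as a block, on 14599 genes with 10 residual degrees of freedom. The block is shared by design, since sums of a preparation come from the same pool of 30 glands. Adjusted p-values are Benjamini-Hochberg over all genes tested. The method was tested on simulated data. DESeq2 1.42.0 was an alternative, as were other filters, doublets kept, another clustering resolution, library sizes without hormone genes, and leaving out each library. Levels, shares and ratios carry exact 95% intervals (scipy 1.17.1), which cover counting error only, and limits for a count of 0 use 3 counts. Library totals were between 61981865 and 72754998 UMIs over all barcodes. All 10 members are named, beside the 3 best correlated genes and, of other imprinted genes, up to 3 called genes with the highest level. The count table had 0 unused sample columns. The members and lists were chosen with earlier results of these data known.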

Additional observations from a re-analysis of the deposited data

Results flagged for a closer look

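The effect of a class on a gene pointed in opposite directions in the dissected and the whole-gland preparation for 4 values, all below the thresholds in the joint fit; the difference between preparations was not tested, since each has 1 value a class. These log2 ratios are on the TMM scale. Dlk1 in folliculostellate-like over pituicyte-like cells had a log2 ratio of 2.24 by the dissected sums and -0.22 by the whole-gland sums. Plagl1 in folliculostellate-like cells over hormone classes had 0.09 and -0.24. In melanotroph-like over corticotroph-like cells, Cdkn1c had 0.22 and -0.77, and Plagl1 had 0.12 and -0.40. In plain CPM both genes were lower in melanotroph-like cells in both preparations, with Cdkn1c at 3.33 and 4.40 CPM, against 4.27 and 10.1 CPM, and Plagl1 at 52.7 and 47.8 CPM, against 73.9 and 82.3 CPM.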

How the results depend on the processing

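Over 84 values and 1150 alternative values, 1093 kept their direction and their side of the threshold, 37 lost a call, 6 gained a call and 14 changed sign. Calls of each class against the others numbered 33 to 35 higher and 25 to 31 lower when 1 library was left out, and 34 higher and 28 lower without the replicate block (33 and 30 with it). Folliculostellate-like against pituicyte-like cells had 3 to 5 members higher and 0 lower without 1 library, and against hormone classes 4 higher and 2 lower in each such fit. Melanotroph-like against corticotroph-like cells had 1 to 2 lower without 1 library, 3 with doublets kept and 2 under the stricter cell filter. Without the replicate block 2 calls were lost, of Dlk1 in fibroblast-like and melanotroph-like cells (adjusted p = 0.075 and 0.065). Pairs of a member and a class with at least 10% of cells numbered 42 at 2000 UMIs, 26 at 1000 UMIs and 74 unthinned. With a lobe ratio of at least 3, 1 pair was higher and 5 lower. Dlk1 was at or under the free RNA level in 8 pairs by Gh1 and in 3 otherwise; the Gh1 rule was chosen after seeing the data.

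Signs changed for Dlk1 in gonadotroph-like cells with doublets kept (0.36), for Ndn in folliculostellate-like cells over hormone classes (0.022 under the stricter filter, 0.001 at Leiden resolution 0.5) and for Plagl1 there (0.008 with no low-count filter, and -0.097 to 0.08 when 1 library was left out, the positive values coming without the anterior library or whole-gland lane 2). Dlk1 in folliculostellate-like over pituicyte-like cells ranged between -0.509 and 1.369 when 1 library was left out, with -0.06 without the anterior library, and became -0.273 without hormone-rich folliculostellate-like cells, which was chosen after seeing the data. In melanotroph-like over corticotroph-like cells, Peg3 became 0.034 with DESeq2, 0.014 with hormone genes left out of library sizes and -0.072 to 0.061 when 1 library was left out, and Cdkn1c ranged between -0.881 and 0.124, the highest without whole-gland lane 2. The cause was not tested. Of the lost calls, 20 were lower calls of Dlk1, in fibroblast-like, gonadotroph-like, macrophage-like, melanotroph-like and pituicyte-like cells, 8 of Grb10 and 5 of Mest. Without the anterior or the posterior library 8 calls each were lost; a class left with 1 sum was assumed to vary like the others. Folliculostellate-like against pituicyte-like cells could not be fitted under the stricter cell filter. The values of Igf2 (205 UMIs) and Snrpn (81 UMIs) rest on few counts.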
